A study of Mus musculus with 9 samples.

Results

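The genes described here encode the enzymes that make and break down retinoic acid, measured in pieces of the mouse optic cup taken at E11.5. The members are Rdh10, Dhrs3, Aldh1a1, Aldh1a2, Aldh1a3, Cyp1b1, Cyp26a1, Cyp26b1 and Cyp26c1. They were chosen with earlier results of these data known. A member is represented by probe sets that carry its symbol alone in the annotation of the Affymetrix mouse genome array. Of the 9 genes, 8 had such a probe set, with 13 probe sets among them, out of 18193 genes in all. Cyp26c1 is not analysed here. Where a gene had several probe sets, the one with the highest mean over the 9 arrays gives its main value and the others are reported beside it.

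The tissue was cut out by laser from 3 regions, with 3 arrays lettered A, B and C for each. The optic fissure samples hold the cup margin up to 5 cell diameters from the edge of the fissure, and the nasal and temporal samples come from the centre of each side of the cup. All samples are total RNA of the same embryonic age, and the labels name no genotype, strain, sex or treatment and no number of embryos per sample. The series calls the 3 arrays of a region biological replicates but does not say which of them share embryos. The p-values therefore refer to the variation among these arrays, which may in part be technical.

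Retinoic acid is a small signalling molecule made from vitamin A in 2 oxidation steps. Retinol dehydrogenase 10, encoded by Rdh10, oxidises retinol to retinaldehyde, and Dhrs3 encodes a reductase that turns retinaldehyde back into retinol. The retinaldehyde dehydrogenases encoded by Aldh1a1, Aldh1a2 and Aldh1a3 complete the synthesis, and the cytochrome P450 enzymes of the Cyp26 family inactivate the product. Cyp1b1 encodes another cytochrome P450, which in chick was shown to make retinoic acid from retinol independently of the dehydrogenases. In the embryonic mouse retina Aldh1a1 is known as a dorsal and Aldh1a3 as a ventral gene, with Cyp26a1 in a horizontal band between their territories. Mutations of CYP1B1 cause congenital glaucoma in humans.

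Retinoic acid acts through nuclear receptors that bind direct repeats of a hexamer, and Cyp26a1 is a known direct target. RefSeq promoter windows of GRCm38.p6, which run from 250 bases before to 50 bases after an annotated gene start, were available for 7 of the 9 genes, and Rdh10 and Aldh1a3 had none. The hexamer AGGTCA was searched on both strands together with its variant forms AGTTCA and, with another starting base, GGGTCA as well as the form GGTTCA. They were counted alone and as direct repeats with 1, 2 or 5 bases between the hexamers. The upstream parts of 2 windows are shown because their genes had the lowest and the highest change among the members, Cyp26a1 at chr19:37697558-37697807 on the plus strand and Cyp1b1 at chr17:79715062-79715311 on the minus strand. Each is written 5′ to 3′ along its gene, and capitals mark the hexamers.
Cyp26a1: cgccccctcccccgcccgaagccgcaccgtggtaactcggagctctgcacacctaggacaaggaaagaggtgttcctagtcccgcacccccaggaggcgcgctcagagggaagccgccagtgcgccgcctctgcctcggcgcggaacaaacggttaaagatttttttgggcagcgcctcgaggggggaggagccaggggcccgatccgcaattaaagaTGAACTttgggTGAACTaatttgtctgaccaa
Cyp1b1: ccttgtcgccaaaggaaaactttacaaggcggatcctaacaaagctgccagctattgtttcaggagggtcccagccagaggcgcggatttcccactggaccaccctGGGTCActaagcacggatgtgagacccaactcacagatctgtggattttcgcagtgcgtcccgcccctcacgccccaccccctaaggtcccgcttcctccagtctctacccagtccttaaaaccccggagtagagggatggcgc
The Cyp26a1 window held 1 direct repeat spaced by 5 bases, on the minus strand, from 32 to 16 bases before the annotated start.
Cyp26a1 repeat: TGAACTttgggTGAACT
Both hexamers of this window are those of the repeat. Of 32851 windows of the same length in the table, 32 held such a repeat, a share of 0.0974%, whereas 43.7% held at least 1 single hexamer. Cyp1b1 had 1 single hexamer, beginning 144 bases before the start, and no repeat. Repeats spaced by 1 or 2 bases, found in 0.222% and 0.268% of all windows, were in none of the members' windows. These matches describe the letters of the windows and show neither binding nor use in these cells.

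The arrays were comparable in scale, with median intensities of 27.4 to 30.2. The libraries of the fissure differed from the others in measures other than region. The signal of the added poly-A spike was 844 to 2099 on fissure arrays, 493 to 1060 on nasal and 420 to 960 on temporal arrays, and the ratio of 3-prime over 5-prime probe signal for Gapdh was 4.93 to 15.0 on fissure, 4.90 to 8.77 on nasal and 4.46 to 7.42 on temporal arrays. The labelled tissue was checked by its markers. All 8 measured neural retina markers lay above the 40th percentile on all nasal and temporal arrays and 7 did on all fissure arrays, but 3 of them fell in the fissure against the mean of the other regions and 0 rose. Their summed intensity was 5880 to 6550 in the fissure, 9083 to 10016 in nasal cup and 9019 to 9922 in temporal cup, with no overlap. The 3 were Fgf15 (log2 change -2.60), Hes5 (-1.93) and Pax6 (-0.94), named after their values were seen. With the replicate letter as a block in the fit 1 marker rose, Lhx2, also named after its values were seen. Its log2 change was 0.62 (limma adjusted p = 0.0821, and 0.00723 with the block). All 5 measured ventral cup and fissure markers were higher in the fissure than in the mean of the other regions (limma adjusted p of each below 0.05). Among markers of other cells, the summed intensity of 12 macrophage and leukocyte genes was 2857 to 3406 in the fissure, 499 to 783 in nasal cup and 398 to 665 in temporal cup, and that of 7 lens genes was 1849 to 3101, 366 to 452 and 467 to 931. Maf made up the largest part of the lens sum in the fissure, at 1166.4, 1699.7 and 1046.5 on arrays A, B and C. Foxe3 and Bfsp1 were too dim to be tested. Of the 5 lens genes tested 4 rose against the mean and 0 fell, and Prox1 changed by -0.14. The sum of 10 periocular mesenchyme genes was 972 to 2009, 750 to 1148 and 581 to 1241. These ranges overlapped, but within each letter the fissure array was the highest of the 3. The same held for the sum of 5 erythroid genes, at 4293 to 7645, 2070 to 5340 and 2894 to 4680. The mesenchyme genes did not all move together, as 3 of the 10 rose and 2 fell against the mean. Those that fell were Postn (log2 change -1.43) and Dcn (-0.97). The sum of 8 endothelium genes overlapped as well, at 312.6 to 641.1, 296.2 to 392.8 and 322.9 to 506.5, and in letter B it was highest in temporal cup. Of 9 pigment epithelium markers 1 rose and 4 fell in the fissure against the mean. The sum of 7 surface ectoderm genes was lower there (458 to 528, against 1162 to 1530 in nasal cup and 863 to 1292 in temporal cup). The surface ectoderm genes did not all move together, as 1 of the 6 tested rose and 3 fell against the mean. The part of these cells in the members' changes was not tested. With the Gapdh ratio added to the model no member gained or lost a call. With the spike signal added, 3 calls were lost, of Cyp26b1 against the mean and of Dhrs3 and Aldh1a1 against temporal cup. Counts of called genes are limma counts at an adjusted p below 0.05 over 12773 tested genes unless stated otherwise, and changes are differences of log2(intensity + 16) with their standard error (SE).

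The fissure differed from the mean of the nasal and temporal samples in 7 of the 8 measured members. Against the mean of both sides, 6 of 8 genes rose in the fissure, namely Rdh10, Dhrs3, Aldh1a2, Aldh1a3, Cyp1b1 and Cyp26b1, and 1 fell, Cyp26a1. Over all tested genes 8.6% passed in that comparison, 5.72% higher and 2.88% lower in the fissure. A fit in which the replicate letter is a block called the same number of members, and 16.9% of all genes. Of the members 7 had fissure arrays that did not overlap with the other 6, as did 14.2% of all genes. The median log2 change of the members was 1.61, beside 0.04 over all genes, and the median size was 1.77 beside 0.20. Since the members were chosen with earlier results of these data known, these counts and medians do not test the list. Aldh1a2 and Cyp26b1 were also bright enough to be tested only because of the fissure arrays. In bulk captures, a higher level per cell and more cells carrying a transcript cannot be told apart.

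**Figure D1:**
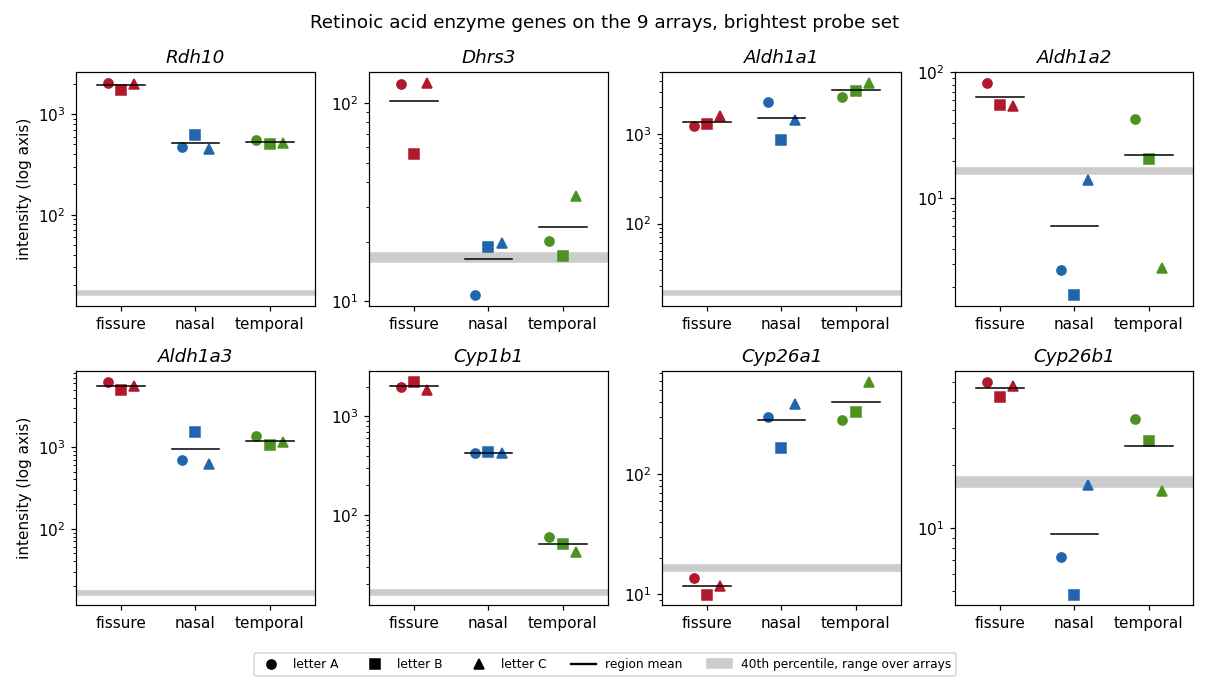
Intensity of the 8 measured genes on the 9 arrays, 1 panel per gene, on a log axis, with regions along the horizontal axis, a symbol per array by letter, a bar at the mean of 3 arrays and a grey band at the 40th percentile of each array's probe sets (15.7 to 17.5). Cyp26a1 lies below the band on all fissure arrays, at 9.9 to 13.7, and Cyp1b1 falls into 3 separate levels.

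Rdh10 carries out the first step of synthesis. It read 2070, 1733 and 2001 on fissure arrays A, B and C, against 471, 616 and 452 on nasal and 551, 508 and 521 on temporal arrays. The lowest fissure array was above every other array, while nasal and temporal arrays overlapped. The log2 change was 1.87 against the mean of both sides (SE 0.14, limma adjusted p = 1.64e-05), a 3.65-fold difference. It was close to the same against nasal cup (1.89, SE 0.16) and against temporal cup (1.84, SE 0.16). The dimmer probe set of Rdh10 read 1535, 1979 and 1257 in the fissure, 330, 574 and 350 in nasal cup and 396, 711 and 412 in temporal cup. It was highest in letter B within every region, which the brighter probe set was not, and its log2 change against the mean was 1.78 (SE 0.24).

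Dhrs3, the reductase gene that acts in the opposite direction to Rdh10, was also higher in the fissure. Its single probe set read 126, 55.6 and 127 on fissure arrays A, B and C, 10.7, 18.9 and 19.7 on nasal arrays and 20.1, 17.0 and 34.0 on temporal arrays. Fissure array B stood well below the other fissure arrays but above all arrays of the other regions. The log2 change was 1.68 against the mean (SE 0.24, limma adjusted p = 0.00102), 1.82 against nasal cup and 1.54 against temporal cup. Since nasal and temporal values lay around the 40th percentile, the size depended on the pseudocount, with 2.28 at a pseudocount of 1 and 0.96 at 64. Fissure array B was likewise the lowest of the fissure arrays in the summed periocular mesenchyme markers, at 972 against 2009 and 1868 on fissure arrays A and C, and in the summed ventral cup markers, at 1870 against 3738 and 3177. It also had the lowest Gapdh ratio of the fissure arrays, at 4.93 against 8.12 and 15.0, and the lowest macrophage sum, at 2857 against 3394 and 3406. With the Gapdh ratio in the model the change against the mean was 1.46 (limma adjusted p = 8.47e-04). The erythroid, endothelium and surface ectoderm sums were also lowest on fissure array B, and the pigment epithelium sum lay between those of the other fissure arrays. The lens sum was highest there, at 3101 against 2075 and 1849 on fissure arrays A and C. So was the neural retina sum, at 6550 against 5880 and 5967. The part of the marker sums in the Dhrs3 values was not tested.

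Aldh1a3, the retinaldehyde dehydrogenase gene of the ventral retina, rose in the fissure in each of its 3 probe sets. It read 6234, 4995 and 5520 on fissure arrays, against 682, 1524 and 618 on nasal and 1364, 1045 and 1135 on temporal arrays. All fissure arrays lay above all others, and nasal array B stood apart from nasal arrays A and C. The log2 change was 2.45 against the mean (SE 0.25, limma adjusted p = 1.15e-04), 2.66 against nasal cup (SE 0.29) and 2.23 against temporal cup (SE 0.29). Without nasal array B the change against nasal cup was 3.07. The other probe sets of Aldh1a3 gave 1288 to 1513 and 633 to 1070 in the fissure, 161 to 398 and 64.9 to 190 in nasal cup and 198 to 315 and 130 to 191 in temporal cup. Their changes against the mean were 2.47 and 2.56, and nasal array B was the highest nasal array in each of the 3 probe sets.

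Aldh1a1, the dorsal dehydrogenase gene, followed another order, with the temporal cup highest. It read 1237, 1320 and 1600 on fissure arrays, 2283, 860 and 1433 on nasal arrays and 2626, 3082 and 3805 on temporal arrays. The temporal arrays lay above all others, and the nasal arrays spread on both sides of the fissure arrays. It fell against temporal cup (log2 change -1.18, SE 0.30, limma adjusted p = 0.0405), but over the 24 alternative fits that adjusted p ranged from 0.00641 to 0.190 and passed in 11. Leaving out any 1 fissure or temporal array, or nasal array C, ended the call, with adjusted p of 0.0585 to 0.156. Fissure and nasal cup differed by -0.04 (95% interval -0.68 to 0.61), and the change against the mean of both regions was -0.61 (adjusted p = 0.187).

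Aldh1a2, which encodes the main retinaldehyde dehydrogenase of the early embryo, was dim. It read 83.2, 54.8 and 54.1 on fissure arrays, 2.7, 1.7 and 13.9 on nasal arrays and 43.0, 20.5 and 2.8 on temporal arrays. The fissure values lay above the 40th percentile on all 3 arrays, the nasal values on 0 and the temporal values on 2. It rose against the mean (log2 change 1.54, SE 0.31, limma adjusted p = 0.00947) and against nasal cup (1.88, SE 0.36, adjusted p = 0.00902). The size moved with the pseudocount, with 2.82 and 3.59 in these comparisons at a pseudocount of 1 and 0.73 and 0.87 at 64. Against temporal cup the log2 change was 1.20 (95% interval 0.42 to 1.99), with limma adjusted p = 0.0845 in the fit without a block and 0.0499 in the blocked fit, and it passed without temporal array A (1.59, adjusted p = 0.0231). The calls against the mean and against nasal cup were lost at a pseudocount of 1 (adjusted p = 0.0631 against the mean and 0.0540 against nasal cup) and without the letter B arrays (0.0550 and 0.0668), and the call against the mean was lost without fissure array A (0.0661).

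Cyp1b1 formed a graded series over the 3 regions. It read 1976, 2246 and 1834 on fissure arrays, 425, 433 and 431 on nasal arrays and 60.4, 51.1 and 42.8 on temporal arrays. No arrays of different regions overlapped, and the nasal arrays were the most alike (430 ± 4.44, SD, n = 3). The log2 change was 2.19 against nasal cup (SE 0.16, limma adjusted p = 2.69e-05) and 4.92 against temporal cup (SE 0.16, adjusted p = 2.79e-08). The dimmer probe set read 265 to 412 in the fissure, 49.6 to 70.4 in nasal cup and 3.0 to 13.8 in temporal cup, with changes of 2.18 and 3.91. Another Cyp1b1 probe set lay below the 40th percentile on all 9 arrays, with means of 3.13 in the fissure, 5.30 in nasal cup and 7.60 in temporal cup, and changed by -0.21 (SE 0.19) against the mean. Averaging the 3 probe sets therefore lowered the changes to 1.41 and 2.85.

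**Figure D2:**
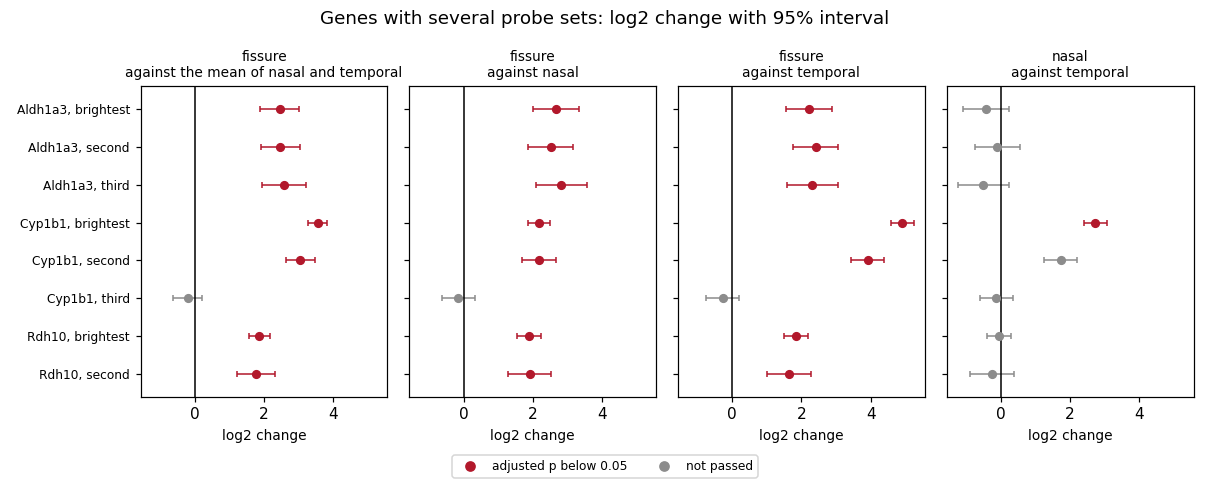
Log2 change with its 95% interval (horizontal axis) for each probe set of the 3 genes with several, 1 row per probe set and 1 panel per comparison, from a limma fit of every single-symbol probe set. All 3 Aldh1a3 probe sets and both Rdh10 probe sets moved the same way, and the third Cyp1b1 probe set, which was dim on all arrays, sits near 0.

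Cyp26a1, which encodes the retinoic acid hydroxylase, was the member that fell. It read 13.7, 9.9 and 11.8 on fissure arrays, against 300, 166 and 387 on nasal arrays and 284, 328 and 589 on temporal arrays. The fissure arrays were all below the 40th percentile, and the lowest other array, nasal B at 166, was far above the highest fissure array at 13.7. The log2 change was -3.60 against the mean (SE 0.27, limma adjusted p = 1.43e-05), -3.36 against nasal cup (SE 0.31) and -3.84 against temporal cup (SE 0.31). With fissure values at the dim end of the arrays, the size of the fall depended on the pseudocount and was -4.65 at a pseudocount of 1 and -2.35 at 64. Cyp26a1 is the gene whose promoter window holds the repeat printed above.

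Cyp26b1, the other measured hydroxylase gene, was dim and moved the opposite way. It read 50.2, 42.2 and 47.8 on fissure arrays, 7.3, 4.8 and 16 on nasal arrays and 33.3, 26.0 and 15.1 on temporal arrays. The fissure arrays were above all others. It was above the 40th percentile on 3 fissure, 0 nasal and 2 temporal arrays. The change was 0.99 against the mean (SE 0.18, limma adjusted p = 0.00569) and 1.33 against nasal cup (SE 0.21, adjusted p = 0.00307). At a pseudocount of 1 these changes were 1.65 and 2.35, and at 64 they were 0.46 and 0.60. Against temporal cup it was 0.64 (95% interval 0.18 to 1.11), which did not pass (adjusted p = 0.115). Adding the poly-A spike signal to the model gave an adjusted p of 0.0502 against the mean.

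Compared with each side separately, the fissure gave nearly the same picture. Both comparisons use the same fissure arrays and are therefore not independent. Against nasal cup 6 members rose and 1 fell, with 6.37% of all genes called (4.41% higher and 1.97% lower, and 12.4% in the blocked fit), and the fissure and nasal arrays of 7 members did not overlap (22.5% of all genes). Against temporal cup 4 rose (Rdh10, Dhrs3, Aldh1a3 and Cyp1b1) and 2 fell (Aldh1a1 and Cyp26a1), with 5.36% of all genes called, 3.47% higher and 1.89% lower. The blocked fit added Aldh1a2, and called 12.1% of all genes. The fissure and temporal arrays of all 8 members did not overlap, as for 21.7% of all genes. The call of Dhrs3 against temporal cup was lost when the poly-A spike signal was added to the model (adjusted p = 0.132).

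**Figure D3:**
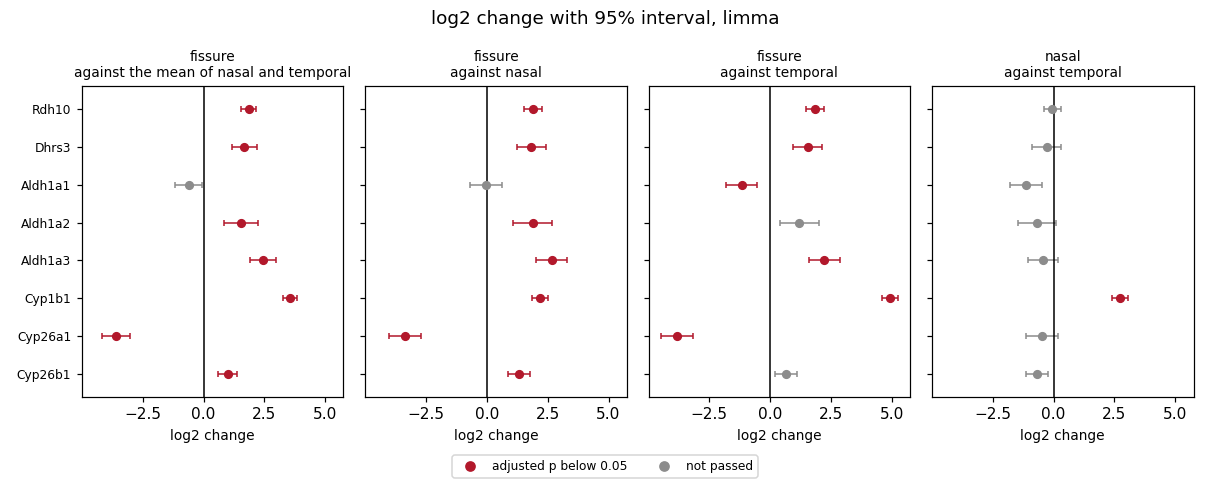
Log2 change of the 8 genes with 95% interval (horizontal axis), 1 row per gene and 1 panel per comparison, with genes past an adjusted p of 0.05 in red and others in grey. In the panel of nasal against temporal cup only Cyp1b1, at 2.73, is red.

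Between the nasal and the temporal cup, Cyp1b1 was the only member called. It was higher in nasal cup by 2.73 on the log2 scale (SE 0.16, limma adjusted p = 9.56e-06), a 6.65-fold difference. Over all genes 6 passed in that comparison, which is 0.047%, with 0.0235% higher in nasal cup (0.133% passed in the blocked fit). The dimmer probe set changed by 1.72 the same way, with an adjusted p of 0.0580 in a fit of all 34945 single-symbol probe sets and 0.0152 when it took the place of the brighter one among the tested genes. The other 7 did not pass in limma. Aldh1a1 was next in size, with a change of -1.14 (95% interval -1.79 to -0.49, limma adjusted p = 0.700) and nasal arrays that did not overlap with the temporal ones. Of the 8 members 2 had arrays that did not overlap, as did 6.8% of all genes. Rdh10 differed by -0.05 (95% interval -0.41 to 0.31) and Aldh1a3 by -0.44 (-1.07 to 0.20). Aldh1a2 differed by -0.68 (95% interval -1.46 to 0.11) and Cyp26a1 by -0.48 (-1.15 to 0.19). Cyp26b1 also differed by -0.68, with a 95% interval of -1.15 to -0.22 that is not adjusted for the number of genes.

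The order of regions thus differed among the members. Rdh10, Aldh1a3 and Dhrs3 were highest in the fissure, with nasal and temporal cup not separated. Aldh1a2 and Cyp26b1 had mean intensities of 64 and 46.7 in the fissure, 6.10 and 9.37 in nasal cup and 22.1 and 24.8 in temporal cup, and in neither gene did temporal cup differ from the fissure or from nasal cup beyond the threshold in the fit without a block. Over the alternative fits the difference between fissure and temporal cup passed in 3 of 23 for Aldh1a2 and in 1 of 23 for Cyp26b1. Cyp26a1 was lowest in the fissure with the 2 sides not separated. Aldh1a1 had its highest mean in temporal cup, where only the difference from the fissure passed, in 11 of 24 alternative fits, and that from nasal cup did not. Fissure and nasal cup were not separated in Aldh1a1, and in Cyp1b1 each region differed from each other region.

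Genes with the most similar pattern were sought among the 12773 tested genes by the Pearson correlation r of log2 values over the 9 arrays. These values describe similarity over arrays that share regions and letters, and r does not measure the size of a change. The closest to Rdh10 were Vax1 (r = 0.992), a homeobox gene of the ventral eye, Rbms1 (0.992) and Afap1l2 (0.991), and the closest to Aldh1a3 were again Vax1 (0.988), then Sytl2 (0.985) and Slc40a1 (0.984), the iron exporter gene. Vax1 read 733, 595 and 559 on fissure arrays, 17.7, 43.6 and 14.9 on nasal and 55.8, 29.5 and 36.8 on temporal arrays, so nasal array B was the highest nasal array for Vax1 as it was for Aldh1a3 and Rdh10. Cyp26a1 was most like Reln (0.988), which encodes the secreted protein reelin, Pid1 (0.987) and Gip (0.986). Reln averaged 459 ± 54.0 in the fissure, 2124 ± 231 in nasal cup and 2654 ± 318 in temporal cup (SD, n = 3 each).

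Aldh1a2 and Cyp26b1 were among each other's closest genes (r = 0.964). Aldh1a2 was otherwise most like 9230114K14Rik (0.970) and Sertad4 (0.951), and Cyp26b1 most like Hopx (0.962) and Acyp2 (0.952). Dhrs3 was closest to Mfsd11 (0.988), Lgmn (0.984), which encodes a lysosomal protease, and Epb41l2 (0.983). For Cyp1b1 the best matches were Kcna5 (0.969), a potassium channel gene, Mettl7a2 (0.968) and Ephx2 (0.960), which encodes soluble epoxide hydrolase. All of these stepped down in mean intensity over fissure, nasal and temporal cup, with 59.5, 27.9 and 7.07 for Mettl7a2. Aldh1a1 was closest to Golga7 (0.965), Prdm10 (0.963) and Socs3 (0.942), a feedback inhibitor gene of cytokine signalling that averaged 74.0, 87.2 and 129. Golga7 averaged 2110, 2125 and 2321, a smaller step than that of Aldh1a1 (1386, 1526 and 3171).

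Nasal array B departed from the other nasal arrays in several members at once. It had the highest Aldh1a3 and Rdh10 and the lowest Aldh1a1 and Cyp26a1 of the 3 nasal arrays. It also had the lowest Aldh1a2 and Cyp26b1, at 1.7 and 4.8, though both were dim on all nasal arrays. Its summed ventral cup markers were 618, beside 517 and 549 on nasal arrays A and C and 1870 to 3738 in the fissure. Its macrophage and lens sums were likewise the highest of the nasal arrays. The mesenchyme, endothelium, erythroid and surface ectoderm sums were the lowest there, and the neural retina and pigment epithelium sums lay in between. Without nasal array B, the fissure differed from nasal cup in 7 members by count, with Aldh1a1 at -0.39 (adjusted p = 0.494) and Aldh1a3 at 3.07. Against the mean of both regions the change of Aldh1a1 was then -0.78 with an adjusted p of 0.0387, which passed, whereas it was 0.187 with all arrays. What sets nasal array B apart was not tested.

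Among carriers and receptors of retinoids, Rxrg rose in the fissure and Crabp2 and Ttr fell. Of 15 genes on that list 13 were tested, and against the mean of both sides 1 rose and 2 fell, beside 5.72% and 2.88% of all genes. Rxrg, a retinoid X receptor gene, rose by 1.52 (SE 0.20, limma adjusted p = 7.19e-04), with 89.4 ± 34.8 in the fissure, 21.3 ± 5.66 in nasal cup and 18.3 ± 6.32 in temporal cup. Crabp2, which encodes a protein that carries retinoic acid to the nucleus, fell by 0.87 (SE 0.17, adjusted p = 0.00711), with 1540 ± 330, 2915 ± 397 and 2722 ± 426 in the 3 regions. Ttr, a plasma carrier of the retinol binding protein complex, fell by 2.30 (SE 0.56, adjusted p = 0.0254) on widely spread values of 8.97 ± 5.76, 90.0 ± 61.7 and 200 ± 175. The median log2 change of the list was -0.08, beside 0.04 over all genes. Against nasal cup 1 rose and 1 fell (4.41% and 1.97% of all genes), and the blocked fit added the fall of Ttr (adjusted p = 0.109, and 0.0254 with the block). Against temporal cup 1 rose and 2 fell (3.47% and 1.89% of all genes). The blocked fit added the fall of Crabp1, another carrier of retinoic acid, there (adjusted p = 0.434, and 0.0358 with the block, named after its values were seen). Between nasal and temporal cup 0 passed in limma, with 0 at an unadjusted p below 0.05.

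For other enzymes that act on retinoids, such as alcohol dehydrogenases and further retinol dehydrogenases, 23 gene symbols were listed. Of these, Bco1 and Bcmo1 name the same gene. From this list 12 genes were tested, and 0 passed in limma in any of the 4 comparisons. Against the mean of both sides 2 had an unadjusted p below 0.05, as did 2819 of all 12773 genes, and both fell in the blocked fit, which called 16.9% of all genes. The counts of this list are thus near those over all genes. These were Rdh5 (log2 change -0.50, limma adjusted p = 0.0778, and 0.0262 with the block), a retinol dehydrogenase of the pigment epithelium, and Aldh8a1 (-0.61, adjusted p = 0.109, and 0.0300 with the block), and they are named after their values were seen. Against nasal cup and against temporal cup 2 and 3 genes had an unadjusted p below 0.05 and 1 fell in each blocked fit, and between nasal and temporal cup 0 did in either. The median change of the list was -0.04.

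Of 15 genes grouped here as retinoic acid response genes, 10 were tested. Whether each of them responds to retinoic acid in the optic cup was not tested. Against the mean of both sides 3 rose and 0 fell, beside 5.72% and 2.88% of all genes. The blocked fit, which called 16.9% of all genes, added Foxc1 (adjusted p = 0.0837, and 0.00970 with the block) and Dkk2 (0.191, and 9.28e-04 with the block), named after their values were seen. Meis2, a homeobox gene, rose by 1.23 (SE 0.16, limma adjusted p = 6.86e-04), with 1406 ± 356 in the fissure, 597 ± 66.6 in nasal cup and 565 ± 5.90 in temporal cup. Vax2, a ventral homeobox gene, rose by 1.08 (SE 0.19, adjusted p = 0.00482), and Hic1, a transcriptional repressor gene, by 0.62 (SE 0.14, adjusted p = 0.0162). The same counts of 3 and 0, and of 5 in the blocked fit, held against nasal cup (4.41% of all genes higher, 12.4% called in the blocked fit) and against temporal cup (3.47% and 12.1%), and 0 passed between nasal and temporal cup in limma, with 0 at an unadjusted p below 0.05. The list's median change was 0.56. Vax2 is also one of the ventral cup and fissure markers by which the tissue was checked. Foxc1 and Foxc2 of this list are also markers of periocular mesenchyme, of whose 10 tested markers 3 rose and 2 fell in the same comparison, and the part of those cells was not tested.

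**Figure D4:**
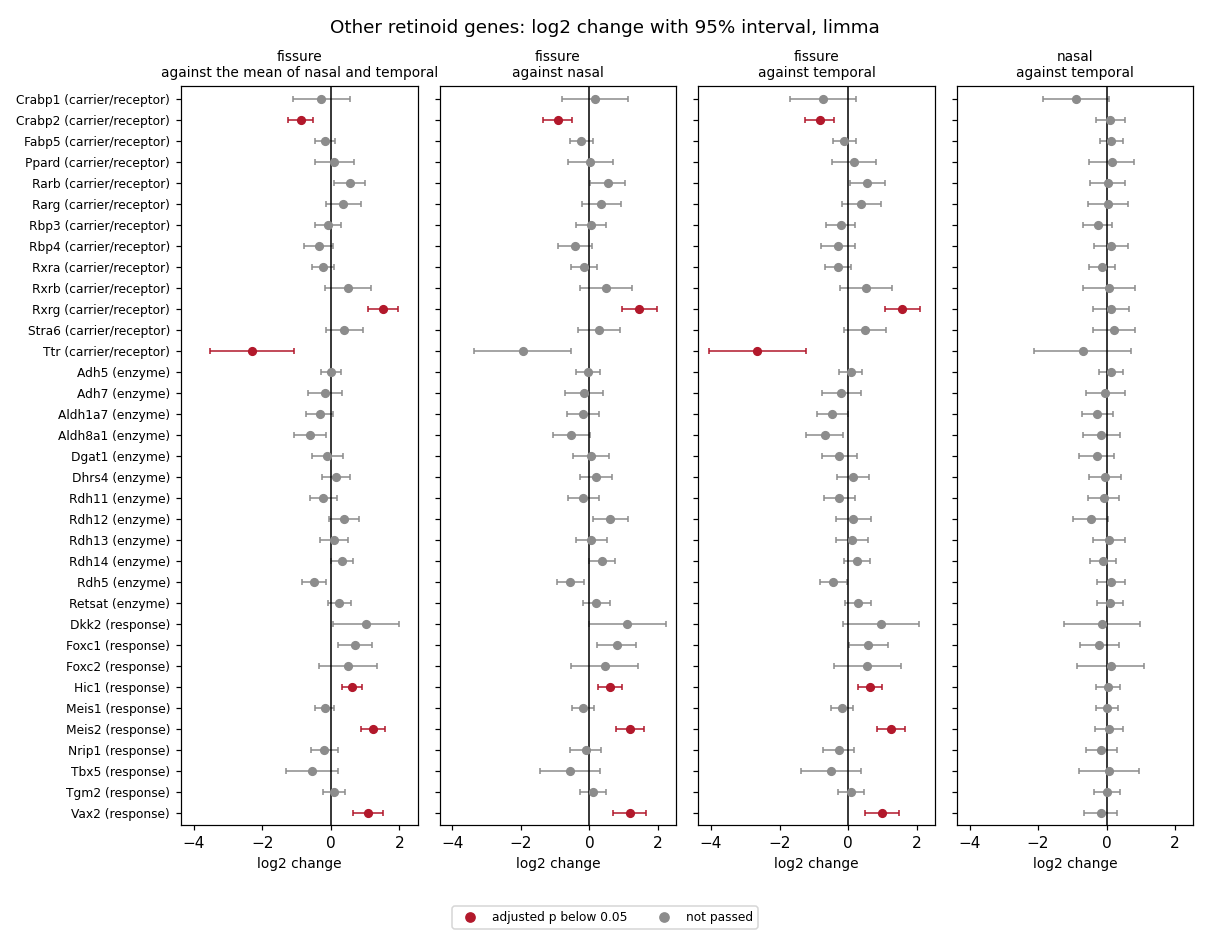
Log2 change with 95% interval (horizontal axis) of the 35 tested genes of the 3 other retinoid lists, 1 row per gene and 1 panel per comparison, with genes past an adjusted p of 0.05 in red. Rxrg, Hic1, Meis2 and Vax2 lie right of 0 and Crabp2 and Ttr left of 0 against the mean of both sides, and no gene is red between nasal and temporal cup.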

How the data were processed

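Total RNA of 9 microdissected samples was hybridised to 1 array each. The values deposited by the authors are linear intensities, 1 per probe set and array, scaled to a common mean (from the values, the mean after trimming 2% from each end was 150.0 on every array). The probe summary method and the annotation build used by the authors are not given in the sources used here, and no detection calls were used. Probe sets were named through the array platform's annotation, some of which may be outdated. Of 45101 probe sets, 34945 had 1 symbol, 932 several, 9160 none there, and 64 were controls. Symbols were checked through the gene ID against the RefSeq table of GRCm38.p6, and 0 needed updating.

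Each gene was represented by its brightest single-symbol probe set. Intensities became log2(intensity + 16), which understates the change of dim genes. Tested genes exceeded the 40th percentile of intensity in 3 or more arrays. Of the 8 members measured, all 8 were tested, and none was above it only on the arrays of 1 region. Aldh1a2 and Cyp26b1 were above it on 3 fissure, 0 nasal and 2 temporal arrays. They therefore met the filter only with the fissure arrays, where they are high, and their place in the member counts and medians depended on that region. With no filter 7 members were called against the mean of both sides. All 9 arrays entered 1 linear model of the region means (limma 3.58.1, R 4.3.3), with Benjamini-Hochberg adjustment over all 12773 tested genes. The fit was tested on simulated data. The number of arrays limits the precision.

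Same-letter arrays were checked for shared deviations from their region's mean. Across genes, r was 0.166 to 0.486 in the 9 same-letter pairs and -0.438 to 0.218 in the 18 others. Each of the 9 exceeded 0.1, so an alternative model took the letter in as a blocking term. The main model has no letter term, so its p-values, SEs, intervals and counts leave any pairing out. The choice of block rests on these correlations, since the labels state no pairing. The ranges overlap. Fissure array A had r of 0.166 with nasal A, below 0.184 with nasal C and 0.218 with temporal C, and 0.229 with temporal A. Blocked values are printed where they change a member's call or move a count by over 1.5 times.

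The members, lists and alternatives were chosen with earlier results of these data known. The text names all 9 members, the 3 genes most like each member that passed, and each other retinoid gene that passed. Alternatives covered the filter, scaling, pseudocount, probe set choice, variance model, array weights, block, regions fitted, RNA measures and left-out arrays. A fit of every probe set on its own was chosen after seeing the data. Figures were drawn with matplotlib 3.10.9.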

Additional observations from a re-analysis of the deposited data

How the results depend on the processing

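Of the member changes recomputed under each alternative, 730 kept direction and side of the threshold, 20 lost a call, 6 gained one and 4 reversed. The 4 reversals were of changes near 0 that passed in no fit, Aldh1a1 against nasal cup at 0.04 without fissure array A and 0.31 without nasal array A (lowest -0.39, without nasal array B), and Rdh10 between nasal and temporal cup at 0.00399 and 0.033 without nasal array A or C (lowest -0.18, without nasal array B). Most lost calls were of Aldh1a1 against temporal cup. The count of members called was 4 against the mean and 4 against nasal cup with the filter at the 60th percentile, which tests fewer dim genes. With arrays left out in turn it was 6 to 8 against the mean, 7 against nasal cup, 5 to 6 against temporal cup and 1 between nasal and temporal cup.

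Counts over all genes moved more. For fissure against the mean, against nasal, against temporal, and nasal against temporal, they were 4099, 2669, 3133 and 10 with array weights and 2165, 1590, 1541 and 17 with the replicate block, beside 1098, 814, 685 and 6. Adding the poly-A spike signal to the model gave, for the fissure comparisons, 446, 410 and 277. Nasal against temporal gave 10 with the Gapdh ratio as a covariate, 3 with only the regions compared and 3 without the letter B arrays. With 1 array left out the ranges were 545 (fissure A) to 1721 (fissure B), 420 (fissure A) to 1245 (fissure B), 372 (fissure A) to 1161 (fissure B) and 2 to 8. Counts against the mean and against nasal and temporal cup without fissure array C were 590, 460 and 403, and that against nasal cup without nasal array A was 437. Those against temporal cup without temporal array A or B were 450 and 447. The cause of these moves was not tested. The block changed 1 member call, Aldh1a2 against temporal cup, and no other.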
